A study of Mus musculus with 21 samples.

Results

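The genes that flank Card9 on mouse chromosome 2 were examined probe by probe in the colon of germ-free (GF) mice. The interval ran from 21.2 to 31.2 Mb of chromosome 2 on the NCBI37 build, 5 Mb to either side of Card9, and took every non-control probe whose position in the deposited annotation fell inside it, apart from the probes of Card9 itself. It held 457 of the 56605 probes on the day 0 arrays, of which 392 passed the filter on dim probes, and 399 of the 55681 probes on the day 7 arrays, of which 344 passed. The probes inside it stood for 229 named genes over both designs. The tested probes covered 203 named genes at day 0 and 185 at day 7, and 48 and 104 probes of the interval had no gene name. The rule used position and no measured value, although the interval was proposed with earlier results of these data known.

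The study asked what loss of Card9 does to colitis without a microbiota. Whole colon RNA of male mice was hybridized to single-color Agilent arrays. At day 0, before dextran sulfate sodium (DSS) was given, 7 arrays were labelled GF Card9-/- and 6 were labelled GF WT. At day 7, after 7 days of 2% DSS in the drinking water, 4 arrays were labelled GF Card9-/- and 4 were labelled GF WT. The replicates of the former include 2 and 2.1, and whether these came from separate mice was not given. Their log2 values differed with an SD of 0.852, against 0.726 to 0.913 for the other pairs of that group, and both were kept. All mice were germ-free, and all day 7 mice had received DSS. The GF Card9-/- mice were on the C57BL/6J background and the GF WT mice were C57BL/6J. Their age on the arrays, the embryonic stem cells in which the deletion was made and the number of backcrosses were not given in the sources used here. Whether the mice of a group came from separate litters was not given either, so p-values measure the spread between these arrays. The days used different array designs, so day and design cannot be told apart, and genotypes were compared within each day only. Every difference below is the mean of the arrays labelled GF Card9-/- minus the mean of those labelled GF WT, on the log2 scale of quantile-normalized signal, where 1 unit is a doubling.

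The Card9 probes ran against the labels. At day 0 the Card9 probe A_66_P128849 lay between 8.71 and 9.24 on the 7 arrays labelled GF Card9-/- and between 2.30 and 2.33, not well above background, on the 6 labelled GF WT. The second probe, A_66_P135237, lay between 6.75 and 7.51 against 2.85 to 3.77. At day 7 the probe A_55_P1986722 lay between 7.93 and 8.57 on the 4 arrays labelled GF Card9-/- and between 2.38 and 2.41 on 3 of the arrays labelled GF WT, with GF WT replicate 1 at 7.85. No GF WT array was well above background at either day 0 probe, so the differences have a lower bound only. Against the dimmest level well above background on each GF WT array, the arrays labelled GF Card9-/- were at least 21.5-fold and at least 6.23-fold higher. At day 7 GF WT replicate 1 was well above background and the other 3 GF WT arrays were not, and the difference of the means as measured was 4.37. With dim GF WT values raised to that level it was at least 3.02, or 8.14-fold. Card9 was thus brighter on the arrays labelled as lacking it. Which part of Card9 the deletion removes was not given in the sources used here, and each direction below follows the deposited labels and would turn if the labels were exchanged. Measurements of these mice other than the arrays were not analysed here.

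CARD9 is an adaptor protein of myeloid cells that carries signals from fungal and other pattern recognition receptors to NF-kappaB. A gene deleted in embryonic stem cells is carried into an inbred line by repeated backcrossing, and the DNA next to it is inherited with it until a recombination separates them. A knockout line can therefore differ from its wild-type controls at neighbouring genes as well as at the targeted one. The segment around Card9 is rich in genes, with Notch1, the Surfeit cluster of housekeeping genes, a cluster of lipocalins and a cluster of interleukin 1 family genes within it.

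The results turned mainly on 6 genes, and the sequences below show which stretches of them the probes read. Each line gives bases 16 to 45 of a 60-base probe, 5′ to 3′, with the position of the whole probe on NCBI37. Trub2, Dnlz and Adamts13 appear with 2 probes each and the other genes with 1. The Dnlz probe A_51_P406334 is spread over 358 bases of the genome. No annotation on NCBI37 was used here, so the probes were not placed in exons or untranslated regions.
Coq4 A_52_P486045, chr2:29652292-29652351, plus strand: tatgtatgcctcgaacagccatattggatc
Trub2 A_51_P104933, chr2:29632129-29632188, minus strand: gtgtgaacactaacaggctgatgattgttg
Trub2 A_55_P1981147, chr2:29637641-29637700, minus strand: gacaacttctgtgaagatggacggctgata
Dnlz A_52_P444457, chr2:26203926-26203985, minus strand: gtactgtgacatccctggcttctgtttcct
Dnlz A_51_P406334, chr2:26206952-26207309, minus strand: aggtctgtgggactcggtcatccaagcgca
Adamts13 A_55_P1967712, chr2:26852318-26852377, plus strand: gctagaccgtggccacccgatatctgtacc
Adamts13 A_52_P400831, chr2:26862185-26862244, plus strand: tggcatgactttcagcaccaaaaccaacac
Cercam A_52_P559545, chr2:29737777-29737836, plus strand: tattttgggctcagctagttttctgtcctc
Dolpp1 A_55_P1990127, chr2:30255965-30256024, plus strand: gtgtgaggtggtttaagaaatcaaatgaaa

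Coq4 and Trub2 are neighbours on opposite strands, and their RefSeq starts lie 178 bases apart. Coq4, on the plus strand, starts at the lower position, so the genes overlap at their 5′ ends. The next lines give the promoter windows of both genes from RefSeq on GRCm38.p6, 250 bases before to 50 bases after each start, because the pair lies close together and a probe of each differed on both days. Both strands were searched for the E-box CACGTG, the CCAAT box, the GC box GGGCGG, the TATA box TATAAA and the ETS factor motif CCGGAAG, and a match is in capitals. The Coq4 window held CACGTG, which 7.15% of 32851 promoter windows hold, and the Trub2 window held GGGCGG on the other strand, which 35.7% hold. Neither window held any of the other motifs. The 79 bases between the windows were not searched.
Coq4, chr2:29787243-29787542, plus strand: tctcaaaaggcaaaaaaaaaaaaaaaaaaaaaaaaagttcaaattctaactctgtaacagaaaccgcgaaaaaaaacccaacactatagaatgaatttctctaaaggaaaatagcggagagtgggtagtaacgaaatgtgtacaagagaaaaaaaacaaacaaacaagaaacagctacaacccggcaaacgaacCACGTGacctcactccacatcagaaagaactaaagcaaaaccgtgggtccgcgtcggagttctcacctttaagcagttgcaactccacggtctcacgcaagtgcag
Trub2, chr2:29787622-29787921, minus strand: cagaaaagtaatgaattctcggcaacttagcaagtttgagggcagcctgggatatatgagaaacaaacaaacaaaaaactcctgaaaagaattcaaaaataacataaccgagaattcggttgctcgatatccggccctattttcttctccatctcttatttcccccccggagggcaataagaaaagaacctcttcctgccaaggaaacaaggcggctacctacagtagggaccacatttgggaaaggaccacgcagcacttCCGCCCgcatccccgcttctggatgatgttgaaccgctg

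Before DSS, a larger share of the interval's probes than of the rest of chromosome 2 had a low p-value for genotype. By limma, 47 of 392 tested probes (12%) had an unadjusted p under 0.05, against 5.54% in the rest of the chromosome and 5.84% over all probes of the day. In GF Card9-/- arrays, 31 of the 47 were higher and 16 lower, beside 121 higher and 69 lower on the rest of chromosome 2. The genotypes were fully apart, without overlap, in 10 probes (2.55%), against 0.438% in the rest of chromosome 2 and 0.458% over all probes. With Benjamini-Hochberg adjustment over all 47410 tested probes, 1 probe of the interval was called at an adjusted p under 0.05, a probe of Trub2, where 0.0253% of all probes were called (12 probes) and 1 of the 3427 tested probes on the rest of chromosome 2. The 12 called probes include 2 of Card9 itself. Most differences were small: the median size over the interval was 0.12, against 0.11 over the rest of the chromosome. The signal was higher in the interval, with a median level of 7.99 against 6.63, and its part in these shares was not tested.

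After 7 days of DSS the same contrast gave 19 of 344 tested probes (5.52%) with an unadjusted p under 0.05, against 3.15% in the rest of chromosome 2 and 3.38% over all probes. Of these, 8 were higher and 11 lower, beside 62 higher and 34 lower on the rest of the chromosome. The genotypes did not overlap in 15 probes (4.36%), against 2.13% in the rest of the chromosome and 2.13% over all probes. No probe of the interval passed the adjusted threshold, and over all 44643 probes 0 passed (0%), with a lowest adjusted p of 0.913 in the interval. The Card9 probe itself did not pass, with a difference of 4.37 and an adjusted p of 0.913. Without GF WT replicate 1, which was bright at Card9, 1 of 47457 probes was called and 0 in the interval. With 4 arrays a genotype the typical SD within a genotype was 0.38 in the interval, against 0.26 at day 0.

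The position of these probes along the chromosome was uneven. In 1 Mb steps from the centre of the interval at 26.2 Mb, the share with an unadjusted p under 0.05 at day 0 was highest in the first megabase above it, at 15 of 63 probes (23.8%). It was 9 of 81 (11.1%) in the first megabase below, 6 of 33 (18.2%) from 2 to 3 Mb above and 9 of 57 (15.8%) from 3 to 4 Mb above, where Trub2, Coq4 and Cercam lie. In the 3 steps farthest below the centre, 0 of 2, 0 of 26 and 0 of 16 probes had such a p at day 0. At day 7 each step of the interval held at most 5 such probes. The 3 steps farthest below then held 0 of 5, 2 of 23 (8.70%) and 0 of 13. Those from 3 to 4 Mb and from 4 to 5 Mb above held 4 of 43 (9.30%) and 5 of 46 (10.9%).

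**Figure D1:**
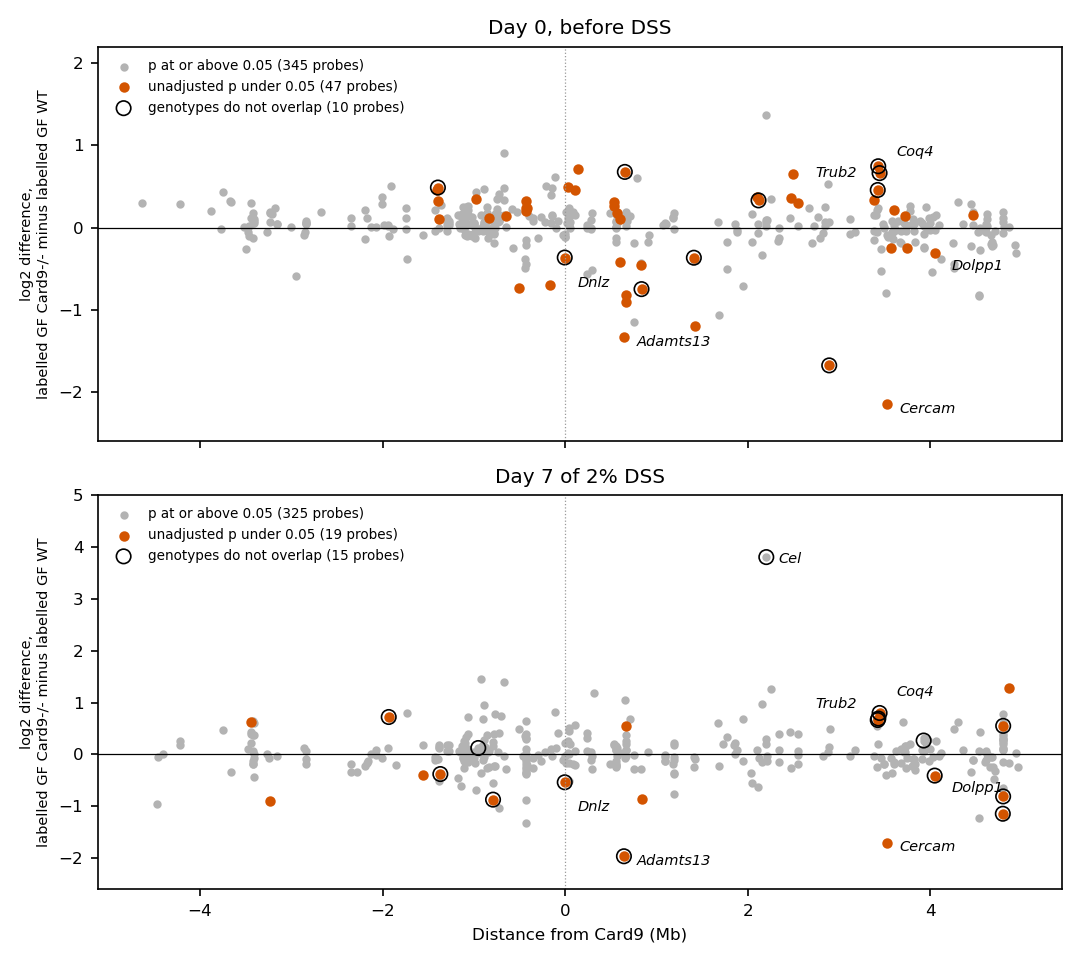
Genotype difference of every tested probe of the interval at day 0 (top) and day 7 (bottom). The x axis is the distance from Card9 in Mb and the y axis the log2 difference, arrays labelled GF Card9-/- minus arrays labelled GF WT. Orange points have an unadjusted p under 0.05 (47 at day 0 and 19 at day 7), rings mark probes whose genotypes do not overlap (10 and 15), and the 6 genes with such a p in the same direction at both days are named, as is Cel at day 7.

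Against tiles of the same width, the interval was high but not alone. Chromosome 2 was divided into 10 Mb tiles counted from the interval. At day 0 the share in the other 18 tiles ran from 0 to 14.7% with a median of 5.15%, and 1 tile, centred 20 Mb above Card9 with 75 tested probes, exceeded the interval. The other tiles at day 7 ran from 0.763 to 7% with a median of 3.17%, and again 1 tile, centred 40 Mb above with 100 tested probes, exceeded it. These were not the same tiles, and the interval ranked second at both days.

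**Figure D2:**
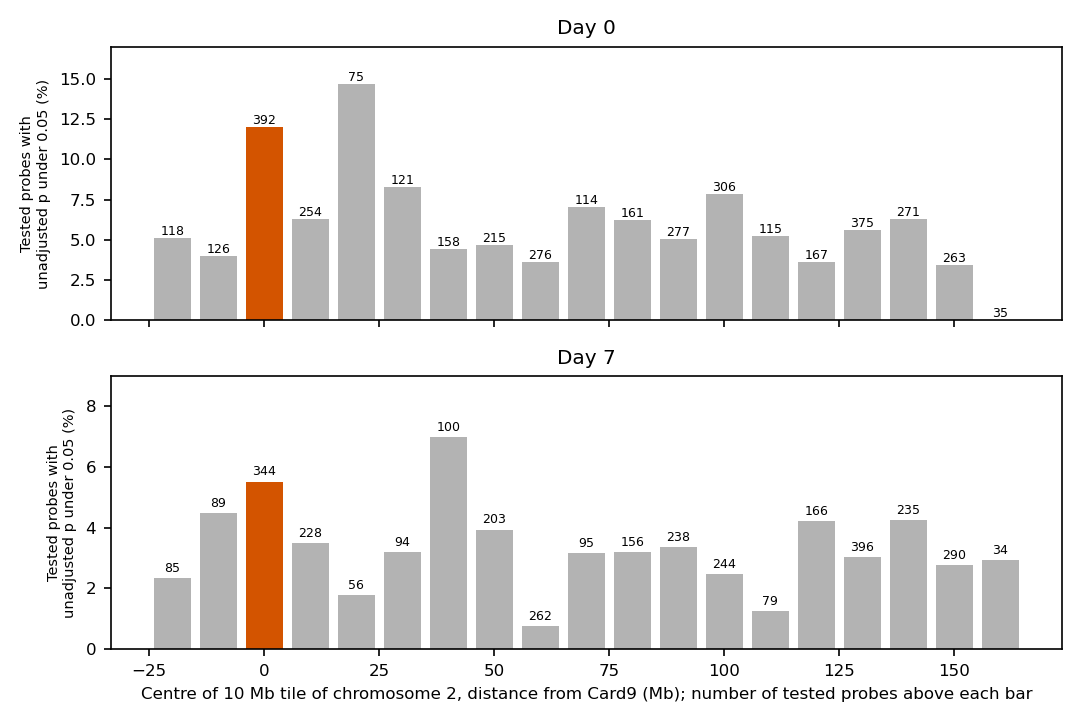
Share of tested probes with an unadjusted p under 0.05 in 10 Mb tiles of chromosome 2 at day 0 (top) and day 7 (bottom), by the distance of the tile's centre from Card9 in Mb. The orange bar is the interval (12% of 392 probes in the top panel and 5.52% of 344 in the bottom one) and the number over a bar is the number of tested probes. At each day 1 grey tile is higher than the interval, a different tile each time.

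The days share no array, so the probes present on both designs measured the same contrast in separate sets of arrays. Of the 236 probes of the interval on both designs, 200 were tested at both days. Among these, 6 had an unadjusted p under 0.05 in the same direction at both days (3%) and 1 had it in opposite directions. Over all 23633 shared probes 0.157% had it in the same direction, and on the rest of chromosome 2 it was 2 of 1668 probes. The 6 probes were those of Coq4, Trub2, Dnlz, Adamts13, Cercam and Dolpp1, and the probe that turned was one of Slc2a6. The direction was the same at both days in 115 of the 200 probes (57.5%), against 51.4% on the rest of chromosome 2. Of the 32 shared probes with such a p at day 0, 22 had the same direction at day 7 (68.8%), against 52 of 101 (51.5%) on the rest of the chromosome.

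Across the 200 probes the differences of the days had a Pearson's r of 0.48 and a Spearman's rho of 0.22, against 0.11 and 0.08 on the rest of chromosome 2. The probes share their arrays within a day, so these values are descriptions. The r rested on few probes: without Cel, Adamts13 and Cercam it was 0.21 over 196 probes. In the joint fit of the 4 groups no probe of the interval differed between the days in its genotype difference at an adjusted p under 0.05, where 0% of all shared probes did. Of the 200 probes, 12 had an unadjusted p under 0.05 for that difference, against 7.14% over all shared probes.

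**Figure D3:**
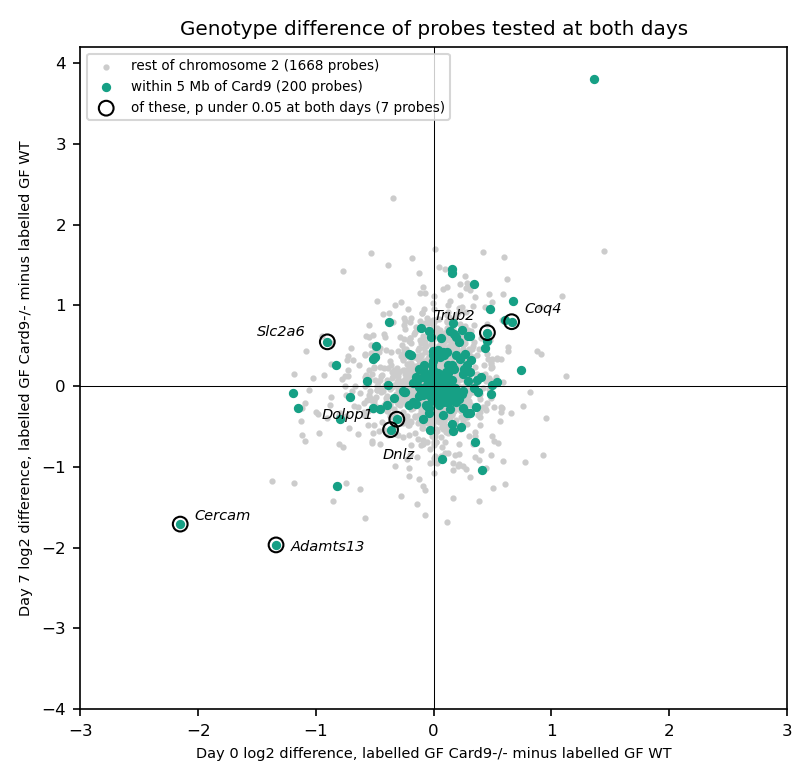
Genotype difference at day 0 (x axis) against day 7 (y axis) for probes tested at both days, in log2 units, arrays labelled GF Card9-/- minus arrays labelled GF WT. Green points are the 200 probes of the interval and grey points the 1668 probes of the rest of chromosome 2. Rings mark the 7 probes of the interval with an unadjusted p under 0.05 at both days, of which 6 lie in the quadrants of equal sign and Slc2a6 does not. The unringed green point at the upper right is Cel.

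Coq4, which encodes a mitochondrial protein needed to make coenzyme Q, had a brighter signal with the GF Card9-/- label on both days. At day 0 its probe lay between 10.79 and 11.07 on the 7 arrays labelled GF Card9-/-, with a median of 10.89, and between 9.99 and 10.76 on the 6 labelled GF WT, with a median of 10.10. The groups did not overlap, but GF WT replicate 6 at 10.76 sat just under the lowest GF Card9-/- array, and the next GF WT array was replicate 5 at 10.41. The difference was 0.66 (SE 0.11, 1.58-fold), and its adjusted p was 0.12. At day 7 the 4 arrays labelled GF Card9-/- read 10.25, 10.41, 10.58 and 10.62, and the 4 labelled GF WT read 9.58, 9.60, 9.71 and 9.79. The groups were clearly apart, by 0.80 (SE 0.12, 1.74-fold), with an adjusted p of 0.913. The difference was positive on all 4 day 0 slides, from 0.15 to 1.08, and on both day 7 slides that held both genotypes, at 0.46 and 1.02.

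Trub2, the neighbour of Coq4, encodes a pseudouridine synthase of mitochondria. Its brightest probe, A_51_P104933, lay between 13.38 and 13.65 on the day 0 arrays labelled GF Card9-/- and between 12.96 and 13.37 on those labelled GF WT. The groups did not overlap, and the highest GF WT value was again that of replicate 6. The difference was 0.46 (SE 0.07, 1.37-fold, adjusted p 0.072) at day 0 and 0.66 (SE 0.14, 1.58-fold, adjusted p 0.913) at day 7. After DSS the arrays labelled GF Card9-/- read 12.57, 12.70, 12.71 and 12.73, and those labelled GF WT read 11.77, 11.90, 12.11 and 12.29. It was positive on each of the 4 day 0 slides and both day 7 slides.

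The single probe of the interval that was called belonged to the same gene. A_55_P1981147 of Trub2 lay between 6.69 and 7.00 at day 0 on the arrays labelled GF Card9-/- and between 5.89 and 6.53 on those labelled GF WT, a difference of 0.75 (SE 0.10, 1.68-fold, adjusted p 0.0391). Within slides the difference ran from 0.35 to 0.90. With normexp background correction it was smaller, at 0.39 (adjusted p 0.0130), and the probe was still called. At day 7 it read 5.72, 5.77, 6.09 and 6.18 against 4.19, 4.94, 5.21 and 8.63, so that GF WT replicate 5 stood far above every other array and the mean difference was 0.20 (SE 0.90). The remaining probe, A_55_P1981150, was dim, with no array well above background. It differed by 0.24 (SE 0.27) at day 0 and by 0.69 (SE 0.21) at day 7, where its genotypes did not overlap. The day 7 difference ran from 0.03 to 0.96 across the processing alternatives and arrays left out.

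The call at day 0 depended on the arrays used. It was lost when any 1 array other than GF WT replicate 6 was left out, with adjusted p from 0.065 to 0.15. It was also lost with the replicate number as a block, with the slide as a block (adjusted p 0.0866) and with the scan session as a block (0.0622). The same held with the deposited normalized values (0.0525) and with each array's 75th percentile as the normalization (0.219). Without GF WT replicate 6, 4 probes of the interval were called: both Trub2 probes above (adjusted p 0.00785 and 0.000553), Coq4 (0.00260) and Adamts13 A_55_P1967712 (0.0207). Differences then were 0.51, 0.84, 0.77 and -1.64. Over all 49103 probes of that fit 16 were called, and 1 on the rest of chromosome 2. The array left out is the one that lay nearest to the GF Card9-/- values at these same probes. Without its whole slide, 2 were called, Trub2 A_55_P1981147 and Coq4, of 13 over all probes. Leaving out GF WT replicate 5 instead raised the number of probes of the interval with an unadjusted p under 0.05 at day 0 from 47 to 72 of 402 (17.9%), with 1 called, of 6530402F18Rik. The share over all probes rose as well in that fit, from 5.84% to 9.01%, and that over the rest of chromosome 2 from 5.54% to 7.86%.

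Dnlz, next to Card9, encodes a zinc finger protein that keeps the mitochondrial heat shock protein 70 soluble. Its probe A_52_P444457 gave less signal with the GF Card9-/- label on both days, and the groups overlapped on neither. At day 0 it lay between 9.75 and 10.04 against 10.05 to 10.53, with medians of 9.89 and 10.21, a difference of -0.37 (SE 0.09, 1.29-fold, adjusted p 0.34). At day 7 it read 8.89, 9.03, 9.13 and 9.14 against 9.50, 9.52, 9.64 and 9.70, a difference of -0.54 (SE 0.11, 1.45-fold, adjusted p 0.913). The difference was negative on all 4 day 0 slides and both day 7 slides. The other Dnlz probe, A_51_P406334, is the brighter of the pair and differed by -0.08 (SE 0.09) at day 0 and -0.04 (SE 0.18) at day 7. The group means at day 0 were 9.89 against 10.25 in the first probe and 10.63 against 10.71 in the second, and the difference between the probes was not tested.

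Adamts13, the protease that cuts von Willebrand factor, was read by a pair of dim probes whose measured differences had opposite signs. Inbred strains differ in this gene: a retroviral insertion in C57BL/6 leads to a shorter transcript than that of some other strains. The probe A_55_P1967712 lies 5′ of the probe A_52_P400831, and the day 0 annotation gives them different RefSeq transcripts. At day 0 the first lay between 2.37 and 3.24 on the arrays labelled GF Card9-/- and between 3.79 and 4.89 on 5 of those labelled GF WT, with GF WT replicate 6 at 2.38. Its difference was -1.34 (SE 0.32, adjusted p 0.29). It was negative on 3 of the 4 day 0 slides and 0.15 on the slide of GF WT replicate 6. The second lay between 2.5 and 4.27 against 2.44 to 2.49, a difference of 0.68 (SE 0.24, adjusted p 0.68), but no day 0 array was well above background there. On this probe GF WT replicate 6, at 2.49, stayed with the other GF WT arrays.

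The signs were the same at day 7. A_55_P1967712 read 2.32, 2.32, 2.32 and 3.46 on the arrays labelled GF Card9-/- against 3.53, 4.52, 4.58 and 5.64, a difference of -1.97 (SE 0.47, adjusted p 0.913) with no overlap. A_52_P400831 read 2.43, 3.05, 3.89 and 4.87 against 2.40, 2.41, 2.42 and 2.79, a difference of 1.05 (SE 0.49, unadjusted p 0.0671). Both probes were dim. The first was well above background on 2 of 6 GF WT arrays at day 0 and 1 of 4 at day 7 and on no array labelled GF Card9-/-, and the second was well above background on 1 of the 21 arrays. With dim values raised to the dimmest level well above background on the array, the first probe's difference at day 0 was 0.02, and that of the second was 0.12, so both sizes rest on signal near the background. The same floor at day 7 gave GF WT at least 1.28-fold higher at the first probe and allowed no fold at the second.

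Cercam, which encodes an adhesion molecule first found in cerebral endothelium, had a probe near background with a large difference at day 0. That probe, A_52_P559545, lay between 2.36 and 5.63 on the arrays labelled GF Card9-/- and between 4.70 and 6.98 on those labelled GF WT, a difference of -2.15 (SE 0.60, adjusted p 0.43). The groups overlapped, and the low GF WT values, 4.70 and 4.79, were those of replicates 5 and 6. At day 7 it read 2.40, 2.82, 3.15 and 3.96 against 3.20, 4.32, 5.50 and 6.15, a difference of -1.71 (SE 0.66, adjusted p 0.913). The probe was well above background on 7 of 13 arrays at day 0 and 3 of 8 at day 7. With dim values raised to the dimmest level well above background, the differences were -1.18 and -0.77, and with normexp background correction they were -0.80 and -0.49. A second Cercam probe, A_66_P121136, tested at day 0 only, was well above background on all 13 arrays and differed by -0.09 (SE 0.14).

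Dolpp1, a phosphatase that recycles the lipid carrier of N-glycosylation, was slightly lower. Its probe lay between 12.97 and 13.14 at day 0 on the arrays labelled GF Card9-/- and between 12.90 and 13.72 on those labelled GF WT. All but GF WT replicate 2, at 12.90, lay above the GF Card9-/- arrays. The difference was -0.31 (SE 0.12, 1.24-fold, adjusted p 0.72). At day 7 it read 12.09, 12.19, 12.21 and 12.28 against 12.47, 12.55, 12.67 and 12.71, without overlap, a difference of -0.41 (SE 0.10, 1.33-fold, adjusted p 0.913).

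Sardh, the mitochondrial sarcosine dehydrogenase, was read by different probes on the designs and was lower in both. At day 0 the probe A_51_P492676 lay between 8.52 and 9.05 against 9.09 to 9.85, without overlap, a difference of -0.75 (SE 0.12, 1.68-fold, adjusted p 0.0850). It was negative on all 4 slides, from -1.08 to -0.32. At day 7 the probe A_66_P121480 read 6.64, 7.03, 7.41 and 7.97 against 7.65, 7.98, 8.39 and 8.46, a difference of -0.86 (SE 0.32, unadjusted p 0.0284) with 1 overlapping array on each side.

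**Figure D4:**
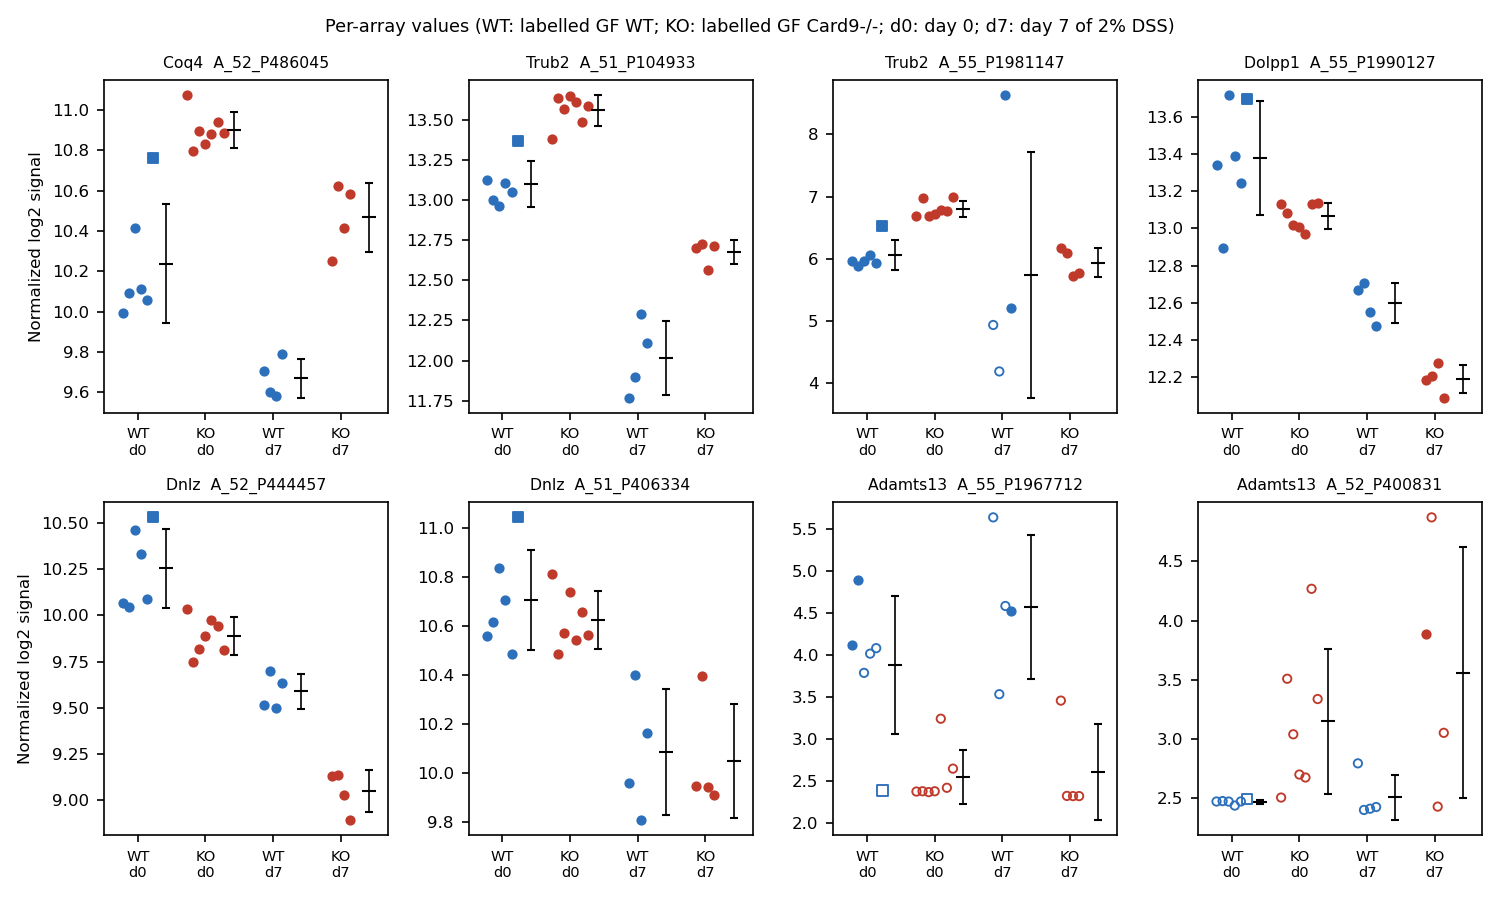
Normalized log2 signal on each array for 8 probes of 5 genes, with the mean and SD of each group beside the points. Filled points are well above background and open points are not, and the square is GF WT day 0 replicate 6. Coq4 and Trub2 A_51_P104933 are higher, and Dnlz A_52_P444457 lower, under the GF Card9-/- label on both days without overlap, while Dnlz A_51_P406334 overlaps and the dim Adamts13 probes differ with opposite signs.

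GF WT day 0 replicate 6 stood apart at some of these genes only. It was nearer to the GF Card9-/- mean than to the mean of the other GF WT arrays at Coq4 (10.76), at the Trub2 probes above (13.37 and 6.53), at Adamts13 A_55_P1967712 (2.38) and at Cercam A_52_P559545 (4.79). It was nearer to the other GF WT arrays at Dnlz A_52_P444457 (10.53), Adamts13 A_52_P400831 (2.49), Sardh (9.64) and Dolpp1 (13.70), and its Card9 values lay in the GF WT range. The array also differed in tissue markers. Its summed signal of 4 small intestine markers was 15629, against 1254 to 3013 on the other day 0 arrays. Its adipocyte sum was 101904, against 11325 to 31958 on the other GF WT arrays and 177109 on GF Card9-/- replicate 6. Its B and plasma cell sum, 761, was the lowest at day 0. The cause was not tested.

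The 5 nearest named genes on each side were Dnlz, Gpsm1, Ccdc187, C030048H21Rik and Qsox2 below and Snapc4, Gm13562, Entr1, Pmpca and Inpp5e above. The probe A_66_P133383 carries the name Ccdc187 at day 0 and C030048H21Rik at day 7. At day 0, Dnlz and Entr1, an endosome-associated trafficking regulator, each had a probe with an unadjusted p under 0.05. Over the whole interval 35 of the 203 tested genes did (17.2%), against 8.89% of all named genes. After DSS it was 12 of 185 (6.49%), against 3.88%. The Entr1 probe A_52_P605546 differed by 0.50 (SE 0.11, unadjusted p 0.000894) at day 0, at a mean of 5.10 against 4.60. That difference ran from 0.10 to 0.56 across the processing alternatives and arrays left out. At day 7 the probe differed by 0.02 (SE 0.41). The brighter Entr1 probe differed by 0.12 (SE 0.08) at day 0 and 0.26 (SE 0.16) at day 7. Gpsm1, a modulator of G protein signalling whose probes lie close to the Dnlz probe A_52_P444457 on the opposite strand, differed by -0.12 (SE 0.10) at its brighter probe at day 0. Snapc4, a subunit of the complex that activates small nuclear RNA genes, differed by 0.19 (SE 0.09) at day 0 and, at another probe, by -0.17 (SE 0.18) at day 7. Pmpca, a subunit of the mitochondrial processing peptidase, differed by 0.08 (SE 0.12) and 0.01 (SE 0.22) at its brighter probe. Inpp5e, a phosphoinositide phosphatase of cilia, differed by 0.05 (SE 0.07) and -0.18 (SE 0.18) at its brightest.

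Several genes gave an unadjusted p under 0.05 before DSS in more than 1 probe, and those named here were chosen after their values were seen. Zmynd19, a zinc finger protein, was higher with the GF Card9-/- label at all 3 of its tested probes, by 0.33 (SE 0.13), 0.46 (SE 0.15) and 0.49 (SE 0.12), the last without overlap at 9.88 to 10.29 against 9.27 to 9.87. At day 7 that last probe differed by -0.10. The test of that change between the days had an unadjusted p of 0.0122 and an adjusted p of 0.529. Ddx31, an RNA helicase of the nucleolus, was higher at both tested probes, by 0.30 (SE 0.08) and 0.66 (SE 0.28), while its day 7 probes differed by 0.06 (SE 0.18) and -0.01 (SE 0.27). Camsap1, which binds microtubule minus ends, was higher at 2 of its 3 tested probes, by 0.20 (SE 0.07) and 0.24 (SE 0.08), and differed by 0.15 (SE 0.12) at the other. Its day 7 probes differed by 0.64 (SE 0.69), -0.13 (SE 0.26) and -0.20 (SE 0.31). Notch1, the receptor, was higher at both of its tested probes, by 0.46 (SE 0.20) and 0.72 (SE 0.27). The mean of its tested probes at day 7 differed by 0.18 (SE 0.18). None of these passed the adjusted threshold.

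Single-probe differences without overlap at day 0 were also seen at Mrps2, Rxra and 6530402F18Rik. Mrps2, a protein of the small mitochondrial ribosomal subunit, lay between 11.92 and 12.20 against 11.56 to 11.82 (difference 0.33, SE 0.06, unadjusted p 0.000181). Rxra, the retinoid X receptor alpha, lay between 14.58 and 14.74 against 14.78 to 15.41 (difference -0.37, SE 0.08, unadjusted p 0.000763). The uncharacterized transcript 6530402F18Rik lay between 3.89 and 4.75 against 5.07 to 6.82 (difference -1.68, SE 0.27), and was well above background on 2 of 7 arrays labelled GF Card9-/- and all 6 labelled GF WT. These 3 probes were not tested at day 7. Other probes of Mrps2 differed by 0.04 (SE 0.12) at day 0 and by -0.63 (SE 0.28) and -0.07 (SE 0.10) at day 7, and the other probe of 6530402F18Rik differed by 0.06 (SE 0.36) and 0.14 (SE 0.49). The other day 0 probe of Rxra, A_51_P307370, overlapped and differed by -0.40 (SE 0.23, unadjusted p 0.115), from -0.77 to 0.46 across slides. After DSS it differed by -0.24 (SE 0.15), and the further probe A_55_P2074331 by -0.05 (SE 0.17). 6530402F18Rik was called with the deposited values (adjusted p 0.0497), with the stricter filter (0.0492) and without GF WT replicate 5 (0.0140).

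Slc2a6, a member of the facilitative glucose transporter family, was lower at day 0 at both probes, by 0.90 (SE 0.33) and 0.83 (SE 0.28) below GF WT. The same probes at day 7 differed by 0.55 (SE 0.22) and 0.26 (SE 0.20). The change between the days at the first probe was 1.45 (SE 0.47), with an unadjusted p of 0.00588 and an adjusted p of 0.481, so it did not pass.

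After DSS the rule for the largest differences without overlap also named Pax8, Phyhd1, Mamdc4 and Cel. Of the 15 probes without overlap, 4 had no gene name. Pax8, a transcription factor of thyroid and kidney, differed by 0.72 (SE 0.29) at day 7 and differed by -0.11 (SE 0.28) at day 0. Its day 7 difference ran from 0.46 to 0.87 when 1 array was left out. Phyhd1, related to phytanoyl-CoA hydroxylase, differed by 0.27 (SE 0.12) at its brightest probe and differed by -0.08 (SE 0.09) at day 0. Mamdc4, an endosomal glycoprotein of absorptive epithelium, differed by -0.87 (SE 0.25) at a dim probe, and its other day 7 probe differed by -0.54 (SE 0.34). At the dim probe the difference ran from -1.03 to -0.22 across the processing alternatives and arrays left out.

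Cel, the bile salt-stimulated lipase of the exocrine pancreas, had the largest difference of the interval at day 7. It read 5.72, 6.46, 10.16 and 14.49 on the arrays labelled GF Card9-/- against 5.14, 5.24, 5.59 and 5.64, a difference of 3.81 (SE 1.81, unadjusted p 0.0719). The high values were those of GF Card9-/- replicates 2.1 and 6, and without replicate 6 the difference was 2.04. At day 0 it lay between 5.35 and 5.92 on 6 arrays labelled GF Card9-/-, between 5.22 and 7.04 on those labelled GF WT, and at 16.69 on GF Card9-/- replicate 7. The summed signal of 8 pancreas markers moved with it. It was 37453 and 643433 on replicates 2.1 and 6 at day 7, with all 8 markers well above background, and between 1409 and 4036 on the other 6 arrays. At day 0 it was 1661007 on replicate 7, again with all 8 well above background, and between 2770 and 7478 on the other arrays. Without GF Card9-/- replicate 7 the day 0 difference of Cel was -0.20.

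Gene families and pathways in the interval were read by the brightest probe of each gene, and none of their members was called at either day. Read in that way, 29 of the 203 tested genes of the interval (14.3%) had an unadjusted p under 0.05 at day 0, against 6.56% over all named genes, and 8 of 185 (4.32%) at day 7, against 2.94%. Of 13 genes listed as near Card9, 1 (Notch1) was higher at day 0 at an unadjusted p under 0.05 and 0 at day 7. Of 6 Surfeit cluster genes, Surf6, a nucleolar protein, and Surf2 were higher at day 0, by 0.31 (SE 0.07) and 0.17 (SE 0.08), and 0 differed at day 7. Surf4 and Rpl7a, among the brightest, differed by 0.06 (SE 0.06) and -0.0039 (SE 0.05) at day 0. Of 7 genes for mitochondrial proteins, Mrps2 and Mrpl41 were higher at day 0, by 0.33 and 0.11, and 0 differed at day 7. Coq4, Trub2 and Sardh were not on that list. These 3 lists had median differences of 0.05, 0.04 and 0.08 at day 0 and 0.06, 0.05 and -0.03 at day 7, where all probes of the interval had 0.04 and 0.01.

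Of 9 immune signalling genes, 3 had such a p at day 0, where Notch1 and Traf2, an adaptor of tumor necrosis factor receptors, were higher and Rxra was lower. At day 7 it was 0 of 10. The median difference of this list was 0.12 at day 0 and 0.16 at day 7. Among 17 Notch signalling genes, 3 of them in the interval, Notch1 was the 1 with a higher signal at that threshold at day 0. Its brightest probe differed by 0.56 (SE 0.36, unadjusted p 0.163) at day 7. The mean of its tested probes differed by 0.18 (SE 0.18) at that day. The 1 such gene of that list at day 7 was Adam17, outside the interval. In the lipocalin cluster 0 of 8 genes differed at day 0 and 0 of 6 at day 7, with a range from -0.24 to 0.49 and from -0.27 to 1.40. In the interleukin 1 cluster 0 of 4 and 0 of 5 differed. Il1rn, the interleukin 1 receptor antagonist and the brightest of them, differed by 0.29 (SE 0.29) and -0.07 (SE 0.32).

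Cell type markers outside the interval did not pass the adjusted threshold at either day. The 8 colon epithelium markers were well above background on all 21 arrays. At an unadjusted p under 0.05, 0 of the markers differed at day 0. At day 7, 1 of 5 T cell markers and 1 of 8 pancreas markers were higher, and of 4 small intestine markers 1 was higher and 1 lower. None of the 6 B and plasma cell, 5 smooth muscle or 5 adipocyte markers had such a p. Whole lists lay to one side of 0 all the same. All 5 smooth muscle markers had negative differences at both days, with medians of -0.45 and -0.48. All 6 B and plasma cell markers had them at day 0, with a median of -0.17. At day 7, 5 of these 6 were positive, with a median of 0.38. All 5 T cell markers had positive differences at both days, with medians of 0.29 and 0.97, as had all 8 pancreas markers, with medians of 1.73 and 5.22, and all 8 epithelium markers at day 7, with a median of 0.38. The adipocyte median was 0.11 at day 0 and 1.45 at day 7, with 4 of 5 positive on the latter. The part of these lists in the results of the interval was not tested. In whole colon tissue fewer cells of a type and less RNA per cell cannot be told apart.

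Genes with several probes were also counted by how many of those probes had a low p-value. At day 0, 106 genes of the interval had more than 1 tested probe. Of these, 23 (21.7%) had at least 1 probe with an unadjusted p under 0.05, against 13.3% of all named genes with more than 1 tested probe. In 5 of the 106 (4.72%) all probes had one, against 1.71%. At day 7 at least 1 probe had one in 6 of 61 genes (9.84%), against 6%, and all probes in 0, against 0.423%. Such genes had on average 2.40 tested probes in the interval and 2.62 over all named genes at day 0, and 2.28 and 2.27 at day 7. A probe that passed and 1 that did not can have nearly equal differences, as in Surf2 at day 0 (0.17 and 0.14), and differences between probes of a gene were not tested. Averaging the tested probes of a gene before the fit gave 28 of 203 genes (13.8%) with an unadjusted p under 0.05 at day 0, led by Sardh, Coq4, Trub2 and Cercam, against 6.3% over all named genes. At day 7 it gave 9 of 185 (4.86%), led by Coq4 and Dolpp1, against 3.17%. No gene was called at either day in that form.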

How the data were processed

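RNA of 21 colon samples was hybridized to single-color Agilent arrays, 13 at day 0 and 8 at day 7. The authors scanned them with Feature Extraction 10.7.3.1, and the deposited scanner files hold processed signal intensity and a p-value of each spot against its background. The authors also deposited normalized log2 values, used here as an alternative. The interval, gene lists and probes were chosen with earlier results of these data known.

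The processed signal of every spot, controls included, was taken to log2 and quantile-normalized over the arrays of a day. The spots of a probe were then averaged, without spots flagged as outliers. A probe was tested where its p-value against background was under 0.05 in 60% of the arrays of a genotype. Genotypes were compared within a day by limma 3.58.1 in R 4.3.3, with Benjamini-Hochberg adjustment over all tested probes, and the days in a joint limma fit of the probes on both designs. The fit was tested on simulated data. Between 54.5 and 64.9% of spots were well above background at day 0 and between 42.2 and 57.1% at day 7. Precision is limited by how many arrays there were. Each day 0 slide held both genotypes, as did 2 of the 6 day 7 slides. Named were the 5 genes nearest to Card9 on each side, those called, the largest day 7 differences without overlap, those with an unadjusted p under 0.05 in the same direction at both days, the listed genes and Cel. Alternatives covered the normalization, background, filter, blocks, interval and each array in turn.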

Additional observations from a re-analysis of the deposited data

Results flagged for a closer look

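In 13 of 136 sets of values of a named probe within a group, 1 array stood far from the nearest other by Dixon's criterion, which chance meets in about 1 in 20 sets. At Card9, GF WT day 7 replicate 1 read 7.85 and GF Card9-/- day 7 replicate 2.1 read 8.57. At Cel, GF Card9-/- day 0 replicate 7 read 16.69. At Trub2, GF WT day 0 replicate 6 read 6.53 on A_55_P1981147 and GF Card9-/- day 7 replicate 4 read 12.57 on A_51_P104933. At Adamts13, A_55_P1967712 read 3.24 on GF Card9-/- day 0 replicate 4 and 3.46 on GF Card9-/- day 7 replicate 2, and A_52_P400831 read 2.79 on GF WT day 7 replicate 1. The same array read 6.28 at Entr1 A_52_P605546. At Dnlz A_51_P406334, GF Card9-/- day 7 replicate 2.1 read 10.40. At Cercam A_66_P121136, GF Card9-/- day 0 replicate 5 read 6.09. At Ccdc187, A_55_P1964237 read 4.25 on GF Card9-/- day 7 replicate 4 and A_66_P133383 read 3.32 on GF Card9-/- day 0 replicate 6. The causes were not tested.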

How the results depend on the processing

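The number of probes of the interval called at day 0, 1 as reported, was 0 with 75th percentile normalization, the replicate block, the slide block, the scan session block, the interval of 2.5 Mb either side and gene means. It was 3 with normexp and 3 with the filter on spots well above background, 2 without the slide of GF WT replicate 6, 4 at an adjusted p under 0.10, and from 0 to 4 when 1 array was left out. Without GF WT replicate 6 it was 4. Over all probes, 12 were called as reported, 27 with normexp, 22 with that filter, 13 without that slide, 29 at 0.10, 16 without that array and from 8 to 16 when 1 array was left out. With an unadjusted p under 0.05, the day 0 count of 47 was 28 with gene means and from 35 to 72 when 1 array was left out, where the share over all probes ran from 4.52% to 9.01%. The day 7 count of 19 was 11 with dim values raised to the floor, 8 within 2.5 Mb, 9 with gene means and from 16 to 27 when 1 array was left out. Fewer probes or genes are counted within 2.5 Mb and with gene means; the other causes were not tested. At day 7 the called count in the interval was 0 under every alternative run. The count of probes with such a p in the same direction at both days, 6 as reported, ran from 5 to 7 when 1 array was left out. The count of genes called at day 0 with the same direction at day 7, 1 as reported, was 0 with 75th percentile normalization, 0 with the deposited values and from 0 to 3 when 1 array was left out. The Card9 difference at day 7, as measured, ran from 3.91 to 5.73, the latter without GF WT replicate 1. No GF WT array was then well above background, so the size of 5.73 rests on signal near the background. Adamts13 A_55_P1967712 at day 0 turned to 0.017 with dim values raised to the floor, and Cel at day 0 to -0.20 without GF Card9-/- replicate 7 and to -0.20 with the replicate block. Cel at day 7 ran from 2.04 to 4.97 when 1 array was left out. At day 0 it was 1.81 without the slide of GF WT replicate 6, against 1.37 as reported.

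Arrays of the same replicate number deviated together in some pairs only, with r from -0.02 to 0.37 over the 6 pairs at day 0 and of 0.11 and 0.03 at day 7, so the numbers were not taken as pairs. At day 0, 4 of 12 arrays correlated best with their own number. With the replicate block, 0 probes were called at either day. Dim probes, as at Adamts13, are limited by the background.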
